A study of Mus musculus with 6 samples.

Results

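Fat from NOD mice that had been treated with alpha-1-antitrypsin (AAT) and had returned to a stable, insulin-independent state was compared with fat from diabetic NOD mice. The comparison used 4 of the 6 arrays of the series, 2 from AAT-treated and 2 from diabetic mice, and took in every gene with 1 symbol on the array. Each gene was read from its probe set with the highest mean signal over the 6 arrays, and 13043 of 18193 such genes passed a filter on low signal and were tested.

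The NOD mouse is an inbred strain that develops autoimmune diabetes without any induced lesion, and all 6 arrays came from it. The diabetic mice had blood glucose above 300 mg/dl on 3 days in a row. The AAT-treated mice are described by their treatment and its outcome, with no dose, schedule, age or sex. The remaining 2 arrays came from normoglycemic female NOD mice aged 10 weeks and are used here as a level against which the AAT-treated values can be read. They also enter the estimate of the spread behind each p-value. The labels name the tissue as fat without the depot, and do not say whether each array is a separate mouse, so the spread behind each p-value is that between arrays and may be purely technical. The array labels on both other groups give no sex, but the X-inactivation transcript Xist read between 7055 and 28717 on every array, and the Y-linked genes Eif2s3y, Kdm5d and Uty were all under the filter.

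White fat stores energy as triglyceride. After feeding, insulin drives glucose into the adipocyte and switches on the synthesis of fatty acids through the transcription factors SREBP-1c and ChREBP, encoded by Srebf1 and Mlxipl. When insulin is low, FoxO factors and glucocorticoids turn on genes that spare glucose, break down protein and recycle cell components. AAT is a serine protease inhibitor of blood plasma, made mostly by the liver, that restrains neutrophil elastase and related enzymes. Fat also holds blood vessels with smooth muscle, a mesothelial covering and resident immune cells, and in a whole-tissue sample fewer cells of a type and less RNA per cell cannot be told apart.

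All values are MAS5 signals as deposited, which MAS5 scales to the same trimmed mean on each array. The size of a difference is that of the gene's brightest probe set, and its other probe sets can differ less. Summed signals of a list take in all its genes on the array, also those under the filter. Pairs of signals are given for the first and then the second array of a group. A difference is the AAT-treated minus the diabetic mean of log2(signal + 75), 2 arrays against 2. Its standard error (SE) and p-value come from a limma fit of all 6 arrays. Both therefore also take in the spread of the normoglycemic pair. The p-value is 2-sided, printed per gene after adjustment over all genes. Median signals ran from 175.7 to 272 over the 6 arrays, and correlations between arrays from 0.744 to 0.923. The 3′ to 5′ ratio of the Actb control probe sets, a measure of how intact the labelled RNA was, read 9.08 and 5.87 on the AAT-treated arrays, 15.2 and 15.5 on the diabetic arrays, and 3.63 and 4.30 on the normoglycemic arrays. This ratio did not overlap between AAT-treated and diabetic arrays, and its part in the results below was not tested. Within groups it differed most between the 2 AAT-treated arrays. A fit with this ratio as a covariate takes its slope mainly from that pair. It then extends the slope to the diabetic ratios, which lie outside the pair's range. Values and counts with this covariate show how far a result moves and are not corrected estimates. The second AAT-treated array stood apart from the first on the leading principal component, which held 45.6% of the variance, at 0.36 against -0.40. The diabetic arrays lay at -0.28 and -0.36.

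No gene differed between AAT-treated and diabetic fat at an adjusted p under 0.05 (0.0% of 13043), and the smallest adjusted p was 0.0749, for Anp32a. Of all tested genes 51.2% were higher and 48.8% lower in AAT-treated fat. At an unadjusted p under 0.05, 383 genes were higher (2.94%) and 239 were lower (1.83%), which is 4.77% of genes in all. Counts of list members at p under 0.05 in the rest of the text are unadjusted in the same way. Both AAT-treated arrays lay above both diabetic arrays for 2332 genes (17.9%) and below both for 2074 (15.9%), or 33.8% together. Genes named below for the smallest p or the widest gap had to be among these, so their lack of overlap follows from the choice. A stricter count took genes whose groups were separated by a gap of at least 1 on the log2 scale, and held 78 higher genes (0.598%) and 36 lower genes (0.276%), or 0.874% together. Of those 78 higher genes, 19 were on the 2 lists of smooth muscle genes, which had 48 members tested. Of the 36 lower genes, 14 were on the 4 lists of fat and sterol synthesis genes, which had 58 members tested. The median difference over all genes was 0.01 with a standard deviation (SD) of 0.52, and 5.46% of genes differed by more than 1 in either direction. These counts moved with single arrays: genes higher at p under 0.05 numbered 645 without the first AAT-treated array and 139 without the second, and genes lower numbered 624 and 121. Leaving out the second diabetic array gave 148 lower genes. With any 1 of the 4 arrays left out, the gap of a gene can only widen or stay as it is. The count of genes with a gap of at least 1 then cannot fall, so its rise is no measure of single arrays.

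**Figure D1:**
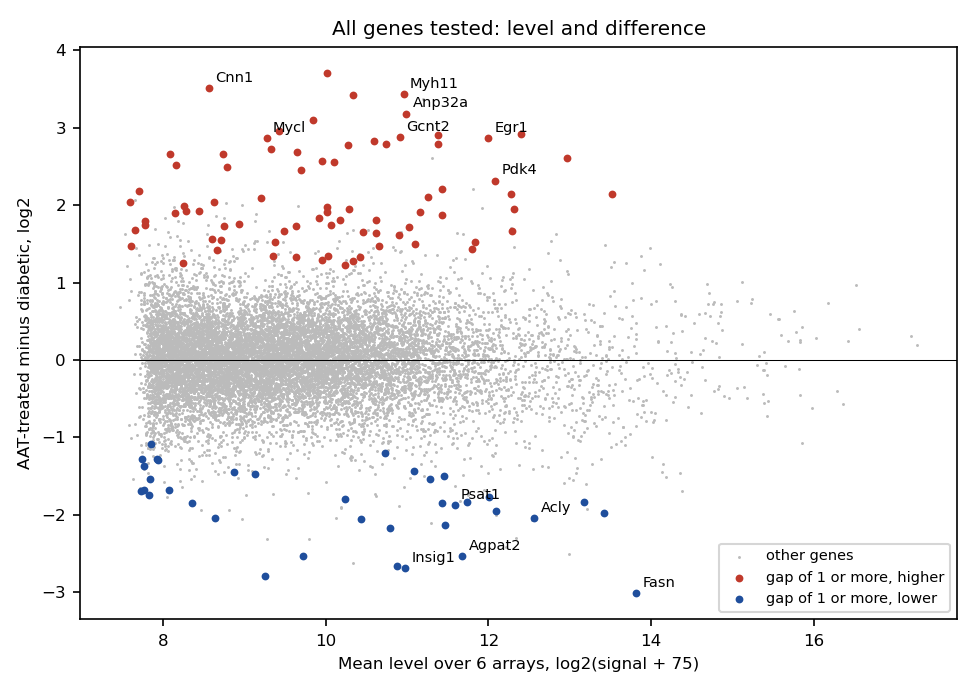
Each point is 1 of the 13043 genes tested, with its mean level over the 6 arrays in log2(signal + 75) on the horizontal axis and the AAT-treated minus diabetic difference in log2 on the vertical axis. Red and blue points mark the 78 higher and 36 lower genes whose groups were at least 1 apart and some of the genes described in the text are named.

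The genes of fat synthesis were the main group with lower signals in AAT-treated fat. All 16 measured genes of fatty acid synthesis and its acetyl-CoA supply were lower than in diabetic fat, 10 of them at p under 0.05 and 6 with a gap of at least 1, and their median difference was -1.37 where that of all genes was 0.01. Triglyceride assembly followed with a median of -1.35 over 13 genes, 9 of them lower and 4 higher. At p under 0.05, 7 were lower and 1 was higher, which was Pck1, the carboxykinase that feeds glycerol synthesis (1.45 ± 0.52). The regulators of these pathways had a median of -0.48 over 13 genes, 10 of them lower, and the cholesterol synthesis enzymes -0.56 over 16 genes, 15 of them lower. Against the normoglycemic arrays the same 4 medians were -0.42, -0.40, 0.02 and -0.13. Summed over the 17 fatty acid synthesis genes on the array, 1 of them under the filter, the signal was 122143 and 144045 on the AAT-treated arrays. It was 227232 and 325453 on the diabetic arrays, and 256261 and 146145 on the normoglycemic arrays. The second normoglycemic array read close to the AAT-treated arrays and the first between the diabetic arrays. With the Actb 3′ to 5′ ratio as a covariate the 4 medians against diabetic fat were -1.75, -0.15, -0.83 and -0.24, in the same order, and without the second diabetic array that of cholesterol synthesis was -0.25. 

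Acly, which splits citrate in the cytosol into acetyl-CoA, measured 4222 and 3242 in AAT-treated fat and 13867 and 17252 in diabetic fat, a difference of -2.04 ± 0.35 (adjusted p = 0.389). Acss2, which makes acetyl-CoA from acetate, measured 1155 and 862 against 3958 and 5745 (-2.17 ± 0.34). Both AAT-treated pairs lay below the diabetic pairs, and their differences from normoglycemic fat were -0.01 ± 0.35 and 0.01 ± 0.34. The 3 other probe sets of Acly differed by -0.57 to 0.71, 1 of them in the opposite direction. Acaca, the acetyl-CoA carboxylase that commits carbon to fatty acids, measured 5525 and 6682 against 22561 and 25996 (-1.98 ± 0.50). Fasn, the fatty acid synthase, measured 4596 and 5691 in AAT-treated fat, 30725 and 56987 in diabetic fat, and 31130 and 6093 in normoglycemic fat. Its AAT-treated and diabetic signals were 2.42 apart at the nearest on the log2 scale, the widest gap among lower genes, and the difference was -3.01 ± 0.70 (adjusted p = 0.625). The normoglycemic pair of Fasn straddled the others, with 1 array at the diabetic level and 1 at the AAT-treated level. Elovl6, which lengthens palmitate, had the same layout, at 480 and 744, then 2850 and 2598, then 2806 and 618 (-2.05 ± 0.60 against diabetic fat).

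The enzymes that supply NADPH and citrate lay in the same direction. Pgd of the pentose phosphate pathway measured 3801 and 1958 against 7691 and 15102 (-1.95 ± 0.45), malic enzyme Me1 1678 and 2339 against 4589 and 7067 (-1.49 ± 0.47), and the mitochondrial citrate carrier Slc25a1 2208 and 3521 against 5537 and 6687 (-1.10 ± 0.41). None of these pairs overlapped. Scd1, the stearoyl-CoA desaturase and one of the most abundant transcripts of the list, measured 58903 and 63020 against 62412 and 103398. Its difference of -0.40 ± 0.49 was within the spread between arrays (adjusted p = 1.0). Me1 and Slc25a1 were chosen after their values were seen, for their place in the pathway.

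**Figure D2:**
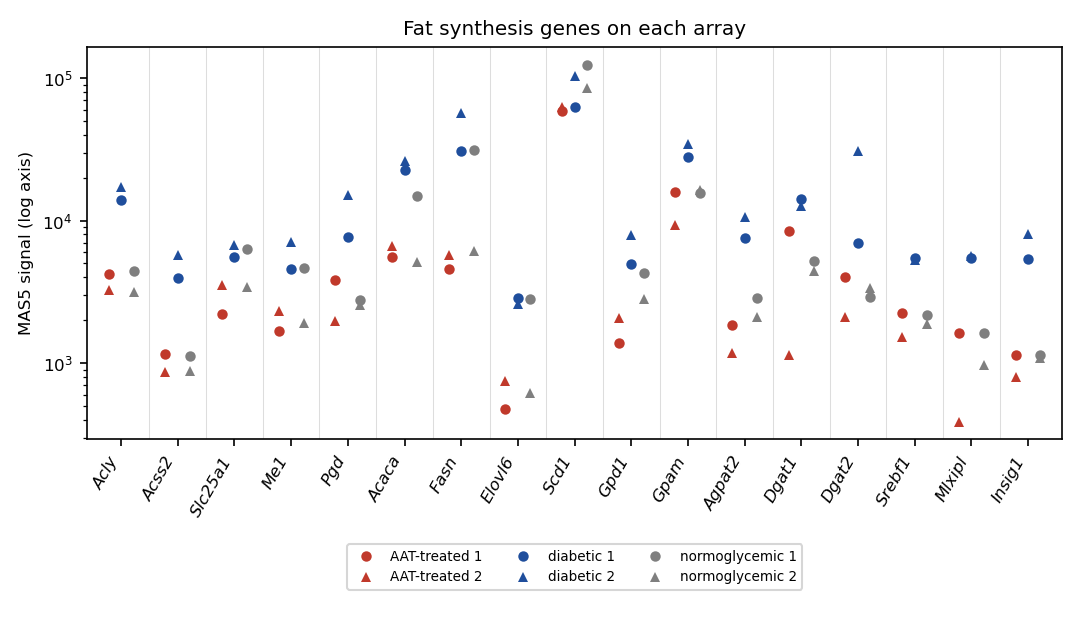
MAS5 signal on a log axis of 17 genes of fat synthesis on each of the 6 arrays, with red for AAT-treated, blue for diabetic and grey for normoglycemic arrays, and circles and triangles for the first and second array of a group. Acly, Acss2, Fasn, Agpat2, Srebf1 and Insig1 show both diabetic arrays above both AAT-treated arrays, while the normoglycemic circle of Fasn and Elovl6 sits at the diabetic level.

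Insig1 had the smallest p of all lower genes. It encodes an endoplasmic reticulum protein that holds SREBP precursors in place when sterols are plentiful, and it is itself a target of SREBP. Insig1 measured 1144 and 800 in AAT-treated fat, 5390 and 8102 in diabetic fat, and 1148 and 1093 in normoglycemic fat. The difference from diabetic fat was -2.69 ± 0.34 (adjusted p = 0.258), and that from normoglycemic fat was -0.21 ± 0.34. Mlxipl measured 1620 and 389 against 5438 and 5628 (-2.66 ± 0.57), with the second AAT-treated array below the first. Srebf1 measured 2240 and 1520 against 5445 and 5290 (-1.50 ± 0.32), and Pnpla3, a lipid droplet enzyme switched on by both factors, 469 and 336 against 1383 and 5077 (-2.54 ± 0.57). All 3 AAT-treated pairs lay below the diabetic pairs. Insig2, the paralog of Insig1 that is not driven by SREBP in the same way, was higher, at 1524 and 1919 against 563 and 923 (1.16 ± 0.36, adjusted p = 0.961), and was named after its values were seen.

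The E box with the letters CACGTG, which is the core of the elements bound by ChREBP and by SREBP-1c among other factors, was searched on both strands in the RefSeq promoter windows (250 bases before to 50 after the annotated start). It was in 4 of the 13 regulator promoters, those of Scap, Insig1, Mlxipl and Mlx, in 2 of 13 promoters of fatty acid synthesis genes, in 3 of 13 of cholesterol synthesis genes, in 1 of 8 of triglyceride assembly genes, and in 11.1% of the 10488 promoters of all tested genes. The sterol element TCACNCCAC, searched on both strands, was in 1 of 13, 1 of 13, 1 of 13 and 0 of 8 promoters of the same lists in that order, and in 1.42% of all. Stretches of 100 bases around the E box of Insig1 and Mlxipl, the members of these 4 with a gap of at least 1, are shown 5′ to 3′ on the plus strand of GRCm38.p6, with the E box in capitals. Its first base lies 101 bases before the start of Insig1 (chr5:28071271-28071370) and 98 before that of Mlxipl (chr5:135089752-135089851).
Insig1: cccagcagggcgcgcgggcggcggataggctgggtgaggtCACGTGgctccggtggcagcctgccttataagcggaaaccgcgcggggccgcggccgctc
Mlxipl: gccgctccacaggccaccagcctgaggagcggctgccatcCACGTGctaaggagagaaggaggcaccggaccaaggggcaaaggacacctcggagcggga

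Among the triglyceride enzymes, Agpat2, which adds the second acyl chain to glycerol phosphate, measured 1841 and 1183 against 7501 and 10563 (-2.53 ± 0.37, adjusted p = 0.327). Gpd1, which makes the glycerol phosphate backbone, measured 1379 and 2085 against 4928 and 7952 (-1.84 ± 0.39), while its 2 other probe sets differed by -0.82 and -0.09. Gpam, the acyltransferase that adds the first acyl chain, measured 15795 and 9258 against 27805 and 34354 (-1.35 ± 0.40), and its 1 other probe set went the opposite way at 0.27. These 3 genes separated the groups without overlap. Dgat2, which adds the last acyl chain, measured 3999 and 2095 against 6906 and 30800 (-2.30 ± 0.65), and its size rests on the second diabetic array: without it the difference was -1.23. Without the second AAT-treated array 2 of the 13 triglyceride genes were lower at p under 0.05, where all arrays gave 7, and the median was -0.66. Without the second diabetic array 3 were lower at that p, and with the Actb 3′ to 5′ ratio as a covariate 1 was. In cholesterol synthesis, Fdft1, the squalene synthase, measured 2477 and 1793 against 10550 and 5201 (-1.78 ± 0.42), and Sc5d, a late sterol desaturase, 353 and 229 against 476 and 958 (-1.07 ± 0.42). Those 2 were the list's members at p under 0.05. The list's median was -0.89 without the first diabetic array, -0.25 without the second and -0.53 without the second AAT-treated array. Hmgcs1, the HMG-CoA synthase, differed by -0.66 ± 0.33 (adjusted p = 0.961), and 1 of its 4 other probe sets went the opposite way.

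Glycolysis enzymes showed lower signals of a smaller size, with 12 of 14 lower and a median of -0.43, which was -0.12 without the second diabetic array and -0.28 with the Actb ratio as a covariate. Tpi1 measured 4816 and 3936 against 6862 and 13562 (-1.13 ± 0.40), and Pgk1 measured 5374 and 3548 against 11354 and 7648 (-1.08 ± 0.37). Both were at the normoglycemic level, from which they differed by -0.05 ± 0.40 and -0.09 ± 0.37. Psat1, the transaminase of serine synthesis, was lower than in either other group, at 1441 and 1195 in AAT-treated, 4462 and 5624 in diabetic and 4797 and 3417 in normoglycemic fat. Its difference was -1.87 ± 0.33 (adjusted p = 0.394) from diabetic and -1.57 ± 0.33 from normoglycemic fat. Phgdh, the first enzyme of the same pathway, measured 6504 and 2952 against 9415 and 14102 (-1.38 ± 0.45), also without overlap, and -0.82 without the second AAT-treated array. These were the 2 members of the list of serine synthesis and ATF4 targets at p under 0.05, and the median of its 18 genes was -0.02, with 8 higher and 10 lower, and 0.60 with the Actb covariate.

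The genes with the smallest p outside lipid synthesis included Nnmt, the nicotinamide methyltransferase of adipocytes, at 1557 and 1643 against 4311 and 8158 (-1.84 ± 0.37), and Paqr9, a receptor of the progestin and adipoQ receptor family, at 168 and 58.5 against 750 and 597 (-2.05 ± 0.42). Nnmt was near its normoglycemic signals of 2220 and 1842, whereas Paqr9 was also below its normoglycemic 446 and 367. The synaptic scaffold gene Grip2 was among the 10 widest gaps at low signal, 24.0 and 44.2 against 256 and 291, a difference of -1.68 ± 0.79, and its normoglycemic arrays read 554 and 44.5. Further genes with a gap of at least 1, named after their values were seen, were Acaa1b, a peroxisomal thiolase, at 5582 and 5390 against 26844 and 14627 (-1.84 ± 0.42), Mogat2, a monoacylglycerol acyltransferase, at 175 and 63.9 against 544 and 656 (-1.85 ± 0.62), and Surf4, a cargo receptor for secreted proteins, at 1993 and 1224 against 4714 and 4622 (-1.53 ± 0.37). Each of these pairs was lower in AAT-treated fat without overlap, which the choice of these genes required.

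Insulin signalling and adipocyte identity genes did not show a comparable split. The 24 measured genes of the insulin receptor pathway had a median difference of -0.04, with 10 higher and 14 lower, which turned to 0.14 without the second AAT-treated array and 0.36 with the Actb ratio as a covariate. Slc2a4, the insulin-responsive glucose transporter GLUT4, measured 1944 and 776 against 2335 and 4046 (-1.27 ± 0.46, adjusted p = 0.961). Its AAT-treated signals were below the diabetic ones by a gap of 0.26 and stood near the normoglycemic 1494 and 1370, and without the second AAT-treated array the difference was -0.64. Igfbp5, an IGF binding protein, measured 4021 and 2405 against 9894 and 7701 (-1.47 ± 0.36), while its 1 other probe set differed by -0.06. The insulin receptor gene Insr and the receptor substrates Irs1 and Irs2 overlapped between groups, with differences of -0.56 ± 0.51, 0.00 ± 0.34 and -0.11 ± 0.63.

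Adiponectin, the adipocyte hormone encoded by Adipoq, measured 31858 and 15690 against 20191 and 48984, which overlapped (-0.49 ± 0.55). Resistin, encoded by Retn, measured 22319 and 5450 against 26824 and 47888 (-1.69 ± 0.64), a difference of -0.68 without the second AAT-treated array. Leptin was the most scattered hormone: Lep measured 2252 and 63.1 in AAT-treated, 18.7 and 9408 in diabetic and 255 and 1299 in normoglycemic fat, so no direction could be read. The 13 adipokine genes had a median of -0.31, which was 0.01 without the second AAT-treated array, 0.15 without the second diabetic array and 0.67 with the Actb ratio as a covariate. Pparg, the master factor of adipocyte differentiation, measured 1996 and 1717 against 927 and 1735 (0.52 ± 0.37). The 10 measured adipocyte markers had a median of -0.12, with 5 higher and 5 lower. That median was 0.51 without the second diabetic array and 0.67 with the Actb covariate. Of these markers Adipoq was at 15690 or more on all arrays, while Lep ran from 18.7 to 9408. The share of other tissue in each sample was not tested. Ins2, an insulin gene, measured 42.9 and 205 against 233 and 223 (-0.74 ± 0.57, adjusted p = 0.986), with normoglycemic signals of 194 and 170.

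Mitochondrial genes leaned lower. Of 33 measured subunits of respiratory complex I, 24 were lower, 17 of them without overlap, and the median was -0.51. Ndufa5 measured 7139 and 3050 against 12321 and 12100 (-1.37 ± 0.43), and Ndufb9 measured 12378 and 5330 against 17446 and 18066 (-1.12 ± 0.44). In both genes the second AAT-treated array was the lowest of the 4, and without it the differences were -0.77 and -0.52. The count of complex I subunits lower at p under 0.05 was 2 with all arrays, 9 without the first AAT-treated array and 0 without the second, when the median was -0.29. With the Actb ratio as a covariate the complex I median turned to 0.07 and the count was 0. Complexes III and IV and the ATP synthase had a median of -0.23 over 33 genes, 21 of them lower (-0.10 without the second AAT-treated array), with Atp5d at 12930 and 7964 against 19659 and 17592 (-0.87 ± 0.38). The citric acid cycle list had a median of -0.15 over 23 genes, which was -0.02 without the first AAT-treated array and -0.72 with the Actb covariate, and no member at p under 0.05.

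**Figure D3:**
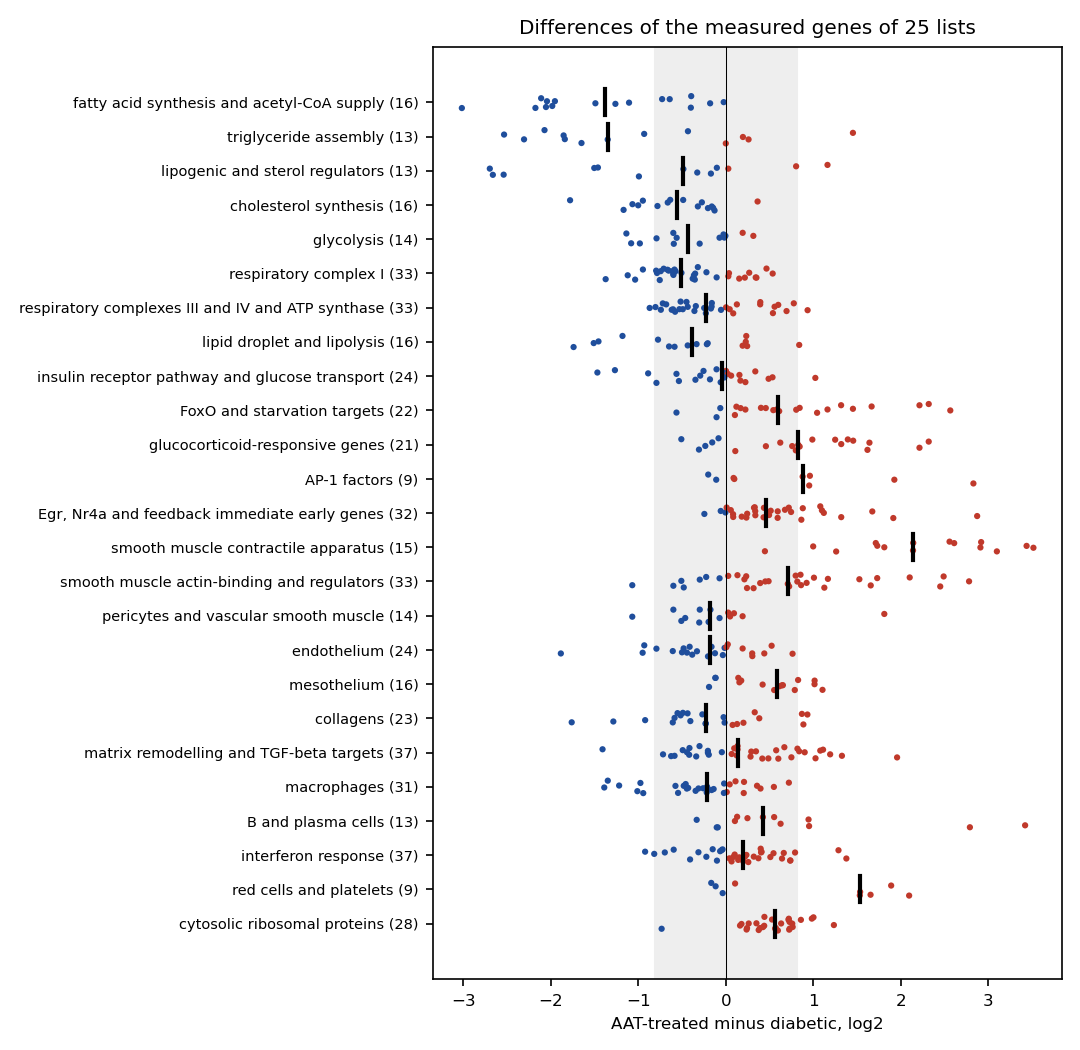
Each point is the AAT-treated minus diabetic difference in log2 of 1 measured gene, arranged by gene list, with red for higher and blue for lower genes and a black bar at the list's median. The number of genes stands behind each name and the grey band spans the 5th to 95th percentile of all genes, -0.80 to 0.82. Fatty acid synthesis and triglyceride assembly have medians of -1.37 and -1.35, and the smooth muscle contractile apparatus 2.14.

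Several genes that are known to respond to low insulin or to glucocorticoids were higher in AAT-treated fat. Pdk4, the kinase that shuts off pyruvate dehydrogenase so that glucose is spared, measured 10568 and 7964 in AAT-treated, 1828 and 1732 in diabetic and 4986 and 4492 in normoglycemic fat. The 3 groups were ordered without overlap, with differences of 2.32 ± 0.32 (adjusted p = 0.295) from diabetic and 0.94 ± 0.32 from normoglycemic fat. Fbxo32, the ubiquitin ligase atrogin-1 of protein breakdown, measured 1785 and 3349 against 512 and 235 (2.56 ± 0.43), and Ddit4, an inhibitor of mTORC1, 9347 and 5523 against 1663 and 1337 (2.21 ± 0.38). Both were also above normoglycemic fat, by 1.48 ± 0.43 and 1.99 ± 0.38. Txnip, an inhibitor of glucose uptake and of thioredoxin, measured 20636 and 18988 against 10705 and 7235 (1.16 ± 0.38) and was at the normoglycemic level (-0.05 ± 0.38).

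The list of fasting and beta-oxidation genes, chosen like the other lists with earlier results of these data known, did not rise as a whole. Of its 23 measured genes 9 were higher and 14 lower, 1 and 2 of them at p under 0.05, with a median of -0.16. On a list of FoxO and starvation targets put together after the values were seen, 19 of 22 measured genes were higher, 9 at p under 0.05, with a median of 0.60. That list includes Gabarapl1, an autophagosome protein, at 6571 and 8854 against 2654 and 2083 (1.67 ± 0.36), and Pck1, the carboxykinase that feeds glycerol synthesis in fat, at 19920 and 27500 against 5102 and 14139 (1.45 ± 0.52, and 0.72 without the first diabetic array). Pdk4, Fbxo32, Ddit4 and Txnip are on the list and prompted it. Without the second AAT-treated array 5 of the 22 were higher at p under 0.05, and with the Actb covariate 4 were. Glucocorticoid-responsive genes were higher in 16 of 21, 7 of them at p under 0.05, with a median of 0.83. Cebpd, an early factor of fat cell differentiation, measured 2717 and 2922 against 804 and 934 (1.62 ± 0.32, adjusted p = 0.554). Tsc22d3, the glucocorticoid-induced leucine zipper, measured 10405 and 10493 against 1979 and 7092 (1.46 ± 0.56), which without the first diabetic array was 0.55, and 1 of its 3 other probe sets went the opposite way. It was named outside the rule. Pdk4 and Ddit4 are on this list too. The count at p under 0.05 was 3 without the first diabetic array, when the median was 0.39, and 4 without the first AAT-treated array.

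**Figure D4:**
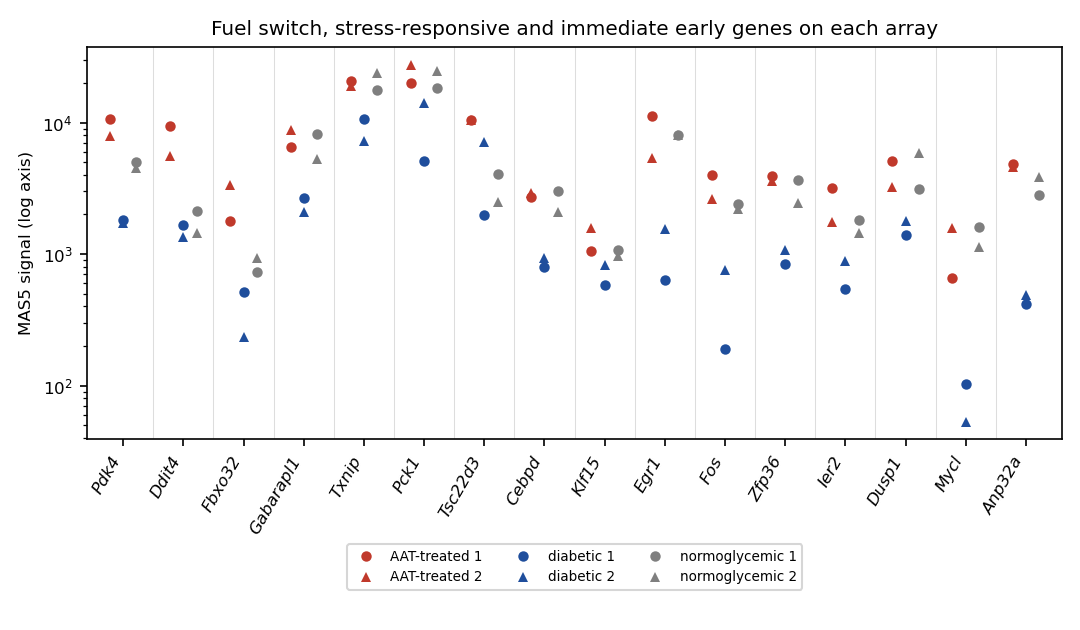
MAS5 signal on a log axis of 16 genes on each of the 6 arrays, with colours for groups and symbols for the first and second array. Mycl and Anp32a are among the 16, and the others are genes of fuel switching, glucocorticoid response and immediate early response. For Pdk4, Egr1, Zfp36 and Anp32a both AAT-treated arrays lie above both diabetic arrays, and for Egr1 and Zfp36 the normoglycemic arrays lie near the AAT-treated ones.

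Immediate early genes, which are transcribed within minutes of a stimulus, were mostly higher in AAT-treated than in diabetic fat. Egr1, a zinc finger factor, measured 11184 and 5425 against 640 and 1541 (2.87 ± 0.49, adjusted p = 0.389), and Fos, the AP-1 partner of Jun proteins, measured 4021 and 2618 against 190 and 751 (2.83 ± 0.52). Zfp36, which promotes decay of inflammatory messages, measured 3953 and 3590 against 836 and 1066 (1.91 ± 0.33), and Ier2 measured 3186 and 1753 against 538 and 881 (1.67 ± 0.39). None of the 4 overlapped, which the rule that named Egr1 and Zfp36 required of those genes. The differences of Egr1, Fos, Zfp36 and Ier2 from normoglycemic fat were -0.05 ± 0.49, 0.49 ± 0.52, 0.32 ± 0.33 and 0.52 ± 0.39. Of 32 measured Egr, Nr4a and feedback genes 29 were higher, 5 at p under 0.05, with a median of 0.47, and with the Actb covariate 9 were at that p. Among 9 AP-1 factors 7 were higher, 3 at p under 0.05, with a median of 0.88, and Maff measured 772 and 546 against 92.5 and 142 (1.93 ± 0.53). The AP-1 median was 0.53 without the first diabetic array and 1.43 with the Actb covariate.

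Anp32a, which encodes an acidic nuclear phosphoprotein that inhibits protein phosphatase 2A, had the smallest p of all genes. Its brightest probe set measured 4817 and 4591 in AAT-treated, 414 and 491 in diabetic and 2789 and 3854 in normoglycemic fat, a difference of 3.18 ± 0.32 or 9.08-fold (adjusted p = 0.0749). The diabetic arrays were the low pair, while AAT-treated and normoglycemic fat differed by 0.51 ± 0.32. Its 2 other probe sets differed by 0.41 and 0.69, in the same direction but far less, and with the mean of all its probe sets the difference was 1.43 (adjusted p = 0.622). The adjusted p in limma was 0.0417 with no filter and 0.0467 with the hybridisation controls as a covariate. The paralogs Anp32b and Anp32e differed by 0.01 ± 0.32 and 0.64 ± 0.33. Mycl, a member of the Myc family, measured 657 and 1585 against 102 and 53.2 (2.87 ± 0.45, adjusted p = 0.361), with normoglycemic signals of 1606 and 1137. The diabetic pair again lay apart from both other groups, and 1 of the 2 other Mycl probe sets went the opposite way. Gcnt2, which builds branched sugar chains on cell surface proteins, measured 8436 and 3816 against 815 and 615 (2.88 ± 0.46, adjusted p = 0.361). It was above normoglycemic fat as well, by 1.85 ± 0.46. The 3 other probe sets of Gcnt2 differed from diabetic fat by 0.02 to 0.63, far less.

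Smooth muscle genes formed the list with the highest median difference. All 15 measured genes of the contractile apparatus were higher in AAT-treated fat, with no overlap in any of them, 14 at p under 0.05 and 12 with a gap of at least 1, and the median difference was 2.14. Summed over the list, the signal was 121341 and 180001 on the AAT-treated arrays, 39407 and 28397 on the diabetic arrays, and 19767 and 64764 on the normoglycemic arrays. The median difference from normoglycemic fat was also 2.14, so the AAT-treated arrays stood above both other groups. Leaving out any 1 of the AAT-treated or diabetic arrays gave a median between 1.89 and 2.62 and between 11 and 12 genes at p under 0.05. With the Actb 3′ to 5′ ratio as a covariate the median was 2.48, and 1 gene was at p under 0.05.

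Myh11, the heavy chain of smooth muscle myosin, measured 6346 and 11589 in AAT-treated fat, 849 and 617 in diabetic fat and 346 and 3045 in normoglycemic fat. Its difference from diabetic fat was 3.44 ± 0.80 (adjusted p = 0.625). Acta2, the smooth muscle alpha-actin, measured 25799 and 36469 against 8066 and 5911 (2.14 ± 0.60), with normoglycemic signals of 3823 and 14637. Actg2, the enteric gamma-actin that marks visceral smooth muscle, measured 2668 and 3270 against 456 and 161 (3.10 ± 0.56, adjusted p = 0.394). In each of these genes the second normoglycemic array came closest to the AAT-treated arrays but stayed below them. Cnn1, the actin-binding calponin, measured 1244 and 1912 against 157 and 11.6 (3.51 ± 0.66), and Tagln, or SM22, 14675 and 24541 against 3312 and 1804 (2.92 ± 0.72). Myl9, the regulatory myosin light chain, measured 6912 and 10509 against 1196 and 956 (2.91 ± 0.52). Des, the muscle intermediate filament desmin, measured 2727 and 4151 against 844 and 971 (1.81 ± 0.37), while its 1 other probe set differed by 0.13. Myl6, a light chain that nonmuscle cells also use, had the smallest difference of the list, at 1803 and 1717 against 1037 and 1552 (0.45 ± 0.32).

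Of 33 further actin-binding and regulatory genes of smooth muscle, 26 were higher, 9 at p under 0.05 and 7 with a gap of at least 1, with a median of 0.71. Ppp1r14a, the phosphatase inhibitor CPI-17 that sustains contraction, measured 1018 and 1818 against 177 and 186 (2.49 ± 0.70). Synpo2, a Z-disc protein, measured 2958 and 4575 against 880 and 238 (2.78 ± 0.63), while its 3 other probe sets differed by -0.28 to 0.03, and the integrin Itga8 measured 1591 and 1848 against 584 and 367 (1.73 ± 0.44). The LIM protein genes Pdlim3 and Csrp1 differed by 2.45 ± 0.56 and 2.10 ± 0.55. None of these pairs overlapped. Srf, the transcription factor that drives contractile genes, measured 843 and 1146 against 447 and 635 (0.80 ± 0.36, adjusted p = 0.961), and its coactivator Myocd 212 and 390 against 272 and 131 (0.45 ± 0.61). Csrp1, Srf and Myocd were named outside the selection rule. Without the second AAT-treated array 5 of the 33 genes were higher at p under 0.05, and with the Actb ratio as a covariate 2 were.

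**Figure D5:**
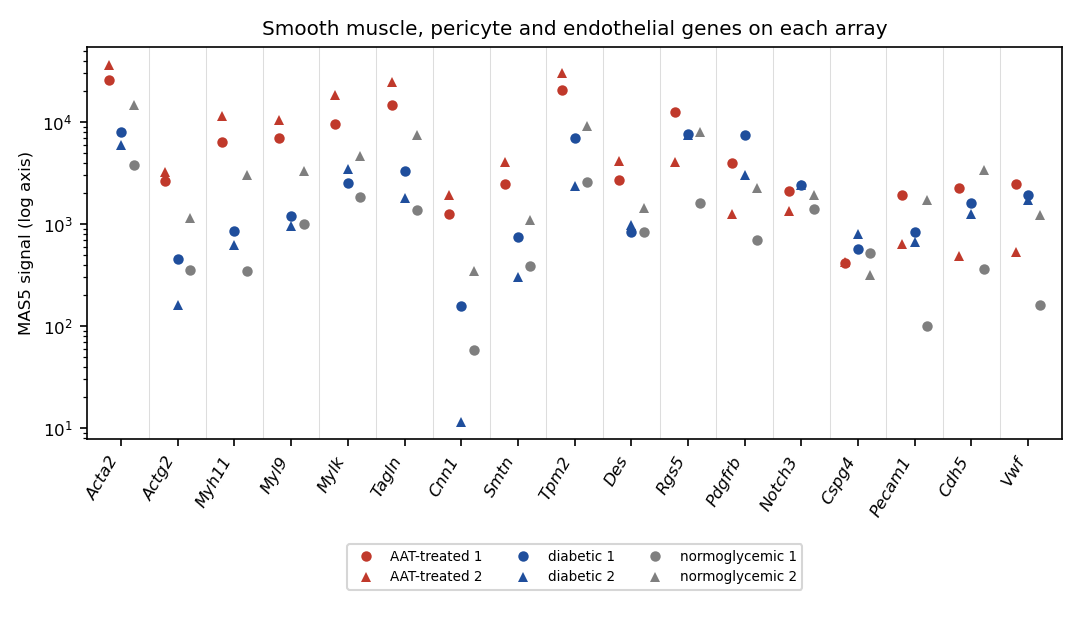
MAS5 signal on a log axis of 10 contractile genes from Acta2 to Des, 4 pericyte genes from Rgs5 to Cspg4 and 3 endothelial genes from Pecam1 to Vwf on each of the 6 arrays, with colours for groups and symbols for the first and second array. Both AAT-treated arrays lie above all other arrays for each of the 10 contractile genes, whereas the groups overlap for Rgs5, Pdgfrb, Pecam1, Cdh5 and Vwf.

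Among markers of other vessel wall cells more were lower than higher. On a list of pericyte and vascular smooth muscle genes put together after the values were seen, 5 of 14 were higher and 9 lower, with a median of -0.18 and 1 gene at p under 0.05, which was Des. Rgs5 measured 12676 and 4044 against 7613 and 7459 (-0.07 ± 0.74), and Pdgfrb 3956 and 1246 against 7490 and 3016 (-1.07 ± 0.70). Notch3 and Cspg4 differed by -0.51 ± 0.35 and -0.60 ± 0.36. The summed signal of that list was 27269 and 14729 on AAT-treated, 23161 and 20862 on diabetic, and 8248 and 18334 on normoglycemic arrays, so the groups overlapped. With the Actb ratio as a covariate the median turned to 1.21. Of 24 endothelial genes 8 were higher and 16 lower, 0 of them at p under 0.05. Their median was -0.18, which was 0.75 without the second AAT-treated array. Pecam1, named outside the rule and among the 8 higher genes, measured 1937 and 633 against 844 and 674 (0.52 ± 0.95). With the Actb ratio as a covariate the endothelial median turned to 4.33 and 18 of the 24 genes were higher at p under 0.05. Striated muscle genes gave 6 higher and 4 lower of 10, with a median of 0.23 that was -0.07 without the first AAT-treated array, and 16 of the 26 on the array were under the filter.

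A CArG box, the element bound by SRF, was found by name on both strands in 2 of 12 promoters of the contractile list, those of Myl9 and Myl6, in 4 of 28 of the regulators, those of Srf, Vcl, Ldb3 and Fhl1, and in 1.57% of the 10488 promoters of all tested genes. On the list of Egr, Nr4a and feedback genes 1 of 22 promoters held one, that of Zfp36, and on the AP-1 list 0 of 8 did. The cyclic AMP response element TGACGTCA, which reads the same on both strands, was in 2 of 22 and 1 of 8 promoters of these lists and in 3.2% of all. Stretches of 100 bases are shown for Myl9, Srf and Zfp36 because these span a contractile gene, its regulator and an immediate early gene. Each is written 5′ to 3′ on the gene's own strand of GRCm38.p6 from RefSeq, with each CArG box in capitals. Myl9 is at chr2:156775263-156775362 on the plus strand, Srf at chr17:46556185-46556284 and Zfp36 at chr7:28379229-28379328, both on the minus strand. The box begins 161 bases before the start of Myl9, 82 before that of Srf, whose stretch holds a further box that begins 62 bases before the start, and 58 before that of Zfp36.
Myl9: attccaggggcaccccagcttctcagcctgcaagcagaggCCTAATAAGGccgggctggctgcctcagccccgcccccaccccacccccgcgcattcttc
Srf: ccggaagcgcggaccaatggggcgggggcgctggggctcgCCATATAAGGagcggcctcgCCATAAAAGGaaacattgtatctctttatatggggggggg
Zfp36: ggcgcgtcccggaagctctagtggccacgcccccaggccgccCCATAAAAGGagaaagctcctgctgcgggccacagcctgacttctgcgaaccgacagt

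Several secreted and stromal genes outside the muscle lists also had gaps of at least 1 and are named after their values were seen. Postn, the matrix protein periostin, is the exception, as the rule selected it, and measured 11811 and 12890 against 3006 and 3242 (1.96 ± 0.54). Rspo3, which amplifies Wnt signals, measured 1907 and 3610 against 684 and 85.0 (2.96 ± 0.74), and Dkk2, a Wnt inhibitor, measured 1018 and 2020 against 236 and 108 (2.66 ± 0.58). Ptn, the growth factor pleiotrophin, measured 2564 and 3137 against 612 and 224 (2.68 ± 0.61), while its 1 other probe set differed by 0.64. The calmodulin-binding gene Pcp4 measured 2541 and 7290 against 634 and 83.9 (3.71 ± 0.84), and the progesterone receptor Pgr 2179 and 1822 against 666 and 376 (1.84 ± 0.42). In each of these genes both AAT-treated arrays also lay above both normoglycemic arrays. In the list of 20 Wnt modulators, made after the values were seen, Rspo3 and Dkk2 prompted it and were its genes with a gap of at least 1, and 15 were higher and 5 lower with a median of 0.42. The median was 0.08 without the second AAT-treated array and turned to -0.40 with the Actb ratio as a covariate.

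Because Pgr and Actg2 are abundant in visceral and reproductive smooth muscle, markers of the female reproductive tract were counted on a list also made after the values were seen. Pgr, which prompted the list, is a member and its 1 gene with a gap of at least 1. Of the 17 other genes tested 12 were higher and 5 lower, 1 at p under 0.05 and 0 with a gap of at least 1, and the median was 0.56. With the Actb ratio as a covariate the median of the list with Pgr turned to -0.43. Summed without Pgr, the signal was 12995 and 19303 on AAT-treated, 13000 and 10381 on diabetic, and 13117 and 11151 on normoglycemic arrays, so the first AAT-treated array lay below 1 array of each other group. Mesothelial genes were higher in 13 of 16, with a median of 0.58 (0.38 without the second AAT-treated array and 0.34 with the Actb covariate) and summed signals of 32084 and 38860 against 24948 and 24980, and Wt1, a mesothelial transcription factor, measured 1115 and 2193 against 808 and 586 (1.11 ± 0.39). Epithelial genes were carried by the second AAT-treated array: Krt7 measured 311 and 2912 against 384 and 269, and Cdh1 32.5 and 1466 against 85.4 and 24.4. The part of these other tissues in the smooth muscle result was not tested.

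Immune genes came on several lists, whose medians ran from -0.22 to 0.42. Of 31 macrophage genes 22 were lower, with a median of -0.22 that was 0.24 without the second diabetic array and -0.08 with the Actb ratio as a covariate. Summed macrophage signal was 40961 and 31513 in AAT-treated, 39682 and 67562 in diabetic and 22397 and 19952 in normoglycemic fat, so the first 2 groups overlapped and both lay above the normoglycemic arrays. Laptm5, a lysosomal protein of leukocytes, measured 2596 and 1619 against 5178 and 5500 (-1.35 ± 0.34, adjusted p = 0.675), and 1 of its 4 other probe sets went the opposite way. The monocyte growth factor receptor gene Csf1r measured 4951 and 1944 against 5460 and 7004 (-0.97 ± 0.45). T and NK cell genes were higher in 11 of 15, with 1 at p under 0.05. That was the interleukin 7 receptor Il7r at 500 and 753 against 154 and 167 (1.55 ± 0.39). Without overlap 3 were higher and 3 lower, and 10 of the 25 on the array were under the filter. The list's median of 0.17 turned to -0.09 without the second AAT-treated array and to -0.79 with the Actb covariate.

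The largest difference on an immune list was in a plasma cell transcript. Ighm, the heavy chain of immunoglobulin M, measured 19419 and 3925 in AAT-treated, 301 and 1738 in diabetic and 153 and 315 in normoglycemic fat, a difference of 3.42 ± 0.86 from diabetic and 4.89 ± 0.86 from normoglycemic fat. Jchain, which joins secreted immunoglobulin chains, measured 9846 and 5310 against 350 and 2557 (2.79 ± 0.76), which was 1.47 without the first diabetic array. Both AAT-treated arrays were above the other 4 for both genes, and 1 of 7 other Ighm probe sets went the opposite way. The other 11 of the 13 measured B and plasma cell genes were not at p under 0.05, and without the first AAT-treated array 4 of the 13 were. The median of the list was 0.42, which was 0.08 without the second AAT-treated array and -0.42 with the Actb covariate.

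Interferon-responsive genes were higher in 25 of 37, with a median of 0.20 that was 0.01 without the first diabetic array and -0.19 with the Actb covariate. Isg20, an antiviral exonuclease, measured 1350 and 1174 against 442 and 502 (1.29 ± 0.31) and was at the normoglycemic level. Inflammatory cytokine and NF-kB genes had a median of 0.02 with 15 higher and 10 lower, from -0.20 without the first AAT-treated array to 0.33 with the Actb covariate. The cytokine genes Tnf and Il6 and the chemokine gene Ccl2 were under the filter, at 21.0 to 100.2, 26.7 to 121.1 and 9.29 to 257.4 over the 6 arrays, and gave no direction. Serpins, the family AAT belongs to, were higher in 5 of 11 with a median of -0.18, and the proteases they inhibit and their kin were higher in 5 of 14 with a median of -0.17. Neither list had a gene with a gap of at least 1, and both medians turned, to 0.18 and 0.17 without the second diabetic array and to 1.02 and 0.21 with the Actb covariate. Slpi, an elastase inhibitor of epithelia that was named after its values were seen, measured 1641 and 2020 against 738 and 726 (1.23 ± 0.33).

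Blood and ribosomal genes differed as well. Of 9 red cell and platelet genes 6 were higher, 3 at p under 0.05, with a median of 1.53 that was 0.46 without the first AAT-treated array, and 5 at p under 0.05 without the second. Ppbp, a platelet chemokine precursor, measured 666 and 573 against 174 and 31.0, with normoglycemic signals of 2237 and 1362. Slc4a1, the red cell anion exchanger, measured 815 and 358 against 148 and 131, with normoglycemic signals of 1146 and 1397. For both genes the AAT-treated arrays lay between the diabetic and the normoglycemic ones. Among 28 cytosolic ribosomal protein genes 27 were higher, 2 at p under 0.05 and 17 without overlap, and the median of 0.57 was 0.24 without the second AAT-treated array. Without the first AAT-treated array 13 were at p under 0.05, and with the Actb ratio as a covariate the median turned to -0.48 and 0 were. Summed ribosomal signal was 675504 and 1155860 against 631620 and 564294, highest on that array.

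Collagens had a median of -0.23 over 23 genes, 15 of them lower. Col1a1 measured 658 and 347 against 1005 and 1625 (-1.28 ± 0.44), while its 1 other probe set differed by -0.05. Without the second diabetic array the collagen median was 0.26, and with the Actb covariate 0.11. Clock genes were split 9 to 8, with Npas2 higher at 320 and 417 against 44.9 and 58.3 (1.80 ± 0.63) and Per3 lower at 570 and 442 against 1085 and 1922 (-1.40 ± 0.36). Per3 has 4 other probe sets, 1 in the opposite direction, and was named after its values were seen. Neither pair overlapped, and the labels give no hour of collection. The tetraspanin Cd9 measured 1717 and 1546 against 360 and 516 (1.75 ± 0.32, adjusted p = 0.394) and the sugar transporter gene Slc45a3 measured 2474 and 2309 against 449 and 700 (1.95 ± 0.43). Both were named after their values were seen, and Cd9 was at its normoglycemic level (0.25 ± 0.32) while both AAT-treated signals of Slc45a3 exceeded its normoglycemic 1752 and 755.

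Set against normoglycemic fat, the AAT-treated arrays did not return a uniform picture. Of the 78 genes higher by a gap of at least 1, 64 had both AAT-treated arrays above both normoglycemic arrays, which held for 2093 of all 13043 genes. Of the 36 lower genes, 20 had both AAT-treated arrays below both normoglycemic arrays, which held for 2097 of all genes. Both comparisons share the AAT-treated arrays, so these counts are a description. In the fit itself 0 genes differed between AAT-treated and normoglycemic fat at an adjusted p under 0.05 in limma, and 668 (5.12%) did at an unadjusted p under 0.05. That count was 279 without the first normoglycemic array and 1512 without the second, when 3 genes passed the adjusted threshold.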

How the data were processed

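Total RNA from fat was hybridised to Affymetrix mouse arrays, 1 colour, after single-cycle biotin labelling, per the labels. The table of intensity values deposited by the authors holds linear MAS5 signals, per the submitters' processing notes, which give no version. It has 45101 probe sets, of which 34945 carry 1 gene symbol, 932 several and 9160 none in the platform annotation. A constant of 75 (the 25th percentile) was added before log2, which shrinks differences of dim genes, and genes at or under a mean signal of 164.4 (the 40th percentile) were left out. Group means of the 6 arrays were fitted with limma 3.58.1 in R 4.3.3 (lmFit, eBayes with trend, 3 residual and 5.36 prior degrees of freedom), with Benjamini-Hochberg adjustment over all tested genes, and the code was tested on simulated data. An exact permutation test of 2 against 2 arrays cannot go below p = 0.333. MAS5 gives no read depth, and precision is set by how few arrays there are.

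The comparison and the 60 gene lists were chosen with earlier results of these data known, and 5 of the lists after these values were seen, so list counts are descriptions. Genes named by rule were the 10 of each direction with the smallest p and no overlap, the 10 of each direction with the widest gap, 4 of each list by smallest p among genes on the side of its median, and a fixed set of insulin, adipokine, cytokine, lipid and muscle genes. Genes outside the rule are marked as named after their values were seen or stand as list members. Of the lists, those with a result described here are reported. Promoters are RefSeq windows on GRCm38.p6, matched by symbol for 10488 of 13043 genes. The 18 alternatives changed the added constant, filter, normalization, probe set choice, arrays, variance model, covariates and replicate block. Same-numbered arrays did not deviate together (correlations of -0.08 for AAT-treated with diabetic, -0.48 for AAT-treated with normoglycemic and 0.08 for diabetic with normoglycemic), so the numbers do not pair the arrays.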

Additional observations from a re-analysis of the deposited data

How the results depend on the processing

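With 2 arrays a group, single arrays decided most counts, and an arm left with 1 array was assumed to vary like the other groups. Counts by gap cannot fall when 1 array is left out. Over the 18 alternatives, 19 of the 58 list medians with at least 5 genes kept their sign in all. Among them were fatty acid synthesis, lipogenic regulators, triglyceride assembly, cholesterol synthesis, both smooth muscle lists, both immediate early lists and glucocorticoid-responsive genes. FoxO targets also kept their sign, but that list was made after the values were seen, around Pdk4, Fbxo32, Ddit4 and Txnip. Its sign was therefore partly set by that choice. The other 39 medians turned under at least 1 alternative, most of them with the Actb 3′ to 5′ ratio as a covariate or without 1 array. Keeping a sign is not keeping a size: triglyceride assembly went from -1.35 to -0.15 with that covariate. Several of the 18 alternatives could not turn the sign of a list or gene, as they leave the AAT-treated minus diabetic difference unchanged. These were the fit of 4 arrays, the changed variance models, the replicate block and leaving out a normoglycemic array. Leaving Pgr out of the reproductive tract list, chosen after seeing the data, gave a median of 0.56. The cause was not tested for any value below. No gene passed an adjusted p under 0.05 in limma for AAT-treated against diabetic fat, except Anp32a, which made the count 1 with no filter and 1 with the hybridisation controls as a covariate. Over all alternatives the adjusted p of Anp32a ran from 0.0417 to 0.873. With an added constant of 16 a gap of at least 1 was met by 56 lower genes, and with 300 by 47 higher and 15 lower. With the Actb 3′ to 5′ ratio as a covariate 703 genes were lower than in diabetic fat at p under 0.05, and 1197 differed from normoglycemic fat. The replicate block gave 0 genes at an adjusted p under 0.05, 275 higher and 177 lower at an unadjusted one, and 502 against normoglycemic fat. The labels do not say whether same-numbered arrays belong together, and the block changed no call at the adjusted threshold.

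Leaving out 1 array gave 139 to 645 higher and 121 to 624 lower genes at p under 0.05, and 150 to 611 higher and 151 to 672 lower genes by gap. Against normoglycemic fat it gave 0 to 3 genes at an adjusted p under 0.05 in limma and 279 to 1512 at an unadjusted one.

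Of 106 genes named with values, 22 turned sign under at least 1 alternative. With the Actb ratio as a covariate the differences that turned were 1.22 for Adipoq, -0.15 for Anp32b, 0.17 for Atp5d, -4.28 for Cdh1, 0.40 for Col1a1, 1.04 for Csf1r, 2.08 for Insr, -0.98 for Irs1, 2.95 for Irs2, -3.91 for Krt7, 6.90 for Lep, 0.49 for Ndufa5, 0.62 for Ndufb9, 0.68 for Notch3, 2.14 for Pdgfrb, 0.58 for Phgdh, 1.24 for Retn, 3.62 for Rgs5, 0.55 for Slc2a4, -0.47 for Wt1 and 1.998 for Xist. With the hybridisation controls as a covariate they were -0.034 for Anp32b, -0.10 for Irs1, 0.24 for Irs2 and 0.32 for Rgs5. Quantile normalization gave -0.011 for Irs1, and the mean of probe sets gave 0.24 for Rgs5. Leaving out 1 array gave ranges through 0 of -1.13 to 0.15 for Adipoq, -0.15 to 0.17 for Anp32b, -0.23 to 3.61 for Cdh1, -1.29 to 0.17 for Insr, -0.30 to 0.30 for Irs1, -0.88 to 0.67 for Irs2, -0.04 to 2.91 for Krt7, -4.06 to 2.60 for Lep, -0.23 to 1.28 for Pecam1, -0.89 to 0.74 for Rgs5 and -0.84 to 0.25 for Xist. MAS5 signals near background limit the dim genes, such as Grip2 and Cdh1.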
